A study of Mus musculus with 8 samples.

Results

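Serpins are a family of proteins that share a fold, and most of them inhibit proteases. The 54 serpin genes measured in inflamed mouse colon are described here, out of 22180 genes tested. A member is a gene whose probe set carries exactly 1 gene symbol in the array's annotation, beginning with Serpin; for the gene with a second such probe set (Serpinb9b), the brighter was kept. By the clade letter in the symbol, 20 members belong to clade A, 25 to clade B, 2 each to clades F and I, and 1 each to clades C, D, E, G and H. 2 further probe sets that name a serpin together with another gene were left out by this rule. The samples were middle colons of 4 knockout mice lacking Trim58 (Trim58-/-), which encodes a tripartite-motif ubiquitin ligase, and of 4 wild type mice (Trim58+/+). All 8 were female, 9 weeks old and of the strain label C57BL/6-Trim58tm2313Arte. All drank 4% dextran sodium sulfate (DSS), a sulfated sugar polymer that damages the lining of the colon, for 7 days, returned to normal water for 5 days and were killed on day 12. There is no colon without DSS among these samples, and each mouse gave 1 array.

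A serpin works as a suicide substrate: the protease cuts an exposed loop of the inhibitor and is then held in a covalent complex. Clade A members are mostly secreted into plasma, often by the liver, and include the antitrypsin and antichymotrypsin groups. Clade B members lack a classical signal peptide and mostly stay inside cells, where they guard against the cell's own granule and lysosomal proteases. The smaller clades hold regulators of clotting, fibrinolysis and complement, a collagen chaperone and the neuroserpin group. In colitis, neutrophils bring elastase, cathepsin G and related proteases into the mucosa, which several of these serpins inhibit.

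Signals are log2 values, so a difference of 1 is a doubling. Colon epithelium markers were bright in both genotypes, for example Epcam at 11.64 ± 0.06 in knockouts and 11.76 ± 0.06 in wild type (SD, n = 4 each). The 13 measured markers averaged 11.02 to 11.07 in knockouts and 11.08 to 11.26 in wild type, with 0 called. Of their differences 11 were below 0 (median -0.09), where 53.9% of all genes were. For 4 of them every knockout lay below every wild type array, as for 5.02% of all genes. Trim58 did not check the labels, since its probe set read 5.05 in knockouts and 5.12 in wild type (log2 difference -0.07 ± 0.12 SE, limma adjusted p = 0.839). Knockout replicate 3 stood apart from the other knockouts in the 18 measured pancreatic acinar markers, digestive enzyme genes whose mean was 9.73, 10.57, 5.78 and 10.30 in knockout replicates 1 to 4 and 5.80 to 5.91 in wild type. The 13 neutrophil markers averaged 7.17 to 7.83 in knockouts and 5.61 to 6.09 in wild type. Of these, 10 were called higher at a limma adjusted p under 0.05, where 0.392% of all genes were. The 7 measured distal colon markers, Hox genes, averaged 6.03, 6.11, 6.36 and 6.59 in knockout replicates 1 to 4 and 6.45 to 6.68 in wild type. All 7 had differences below 0 (median -0.21, where 53.9% of all genes were below 0), with 0 called. In bulk tissue, fewer cells of a type and less RNA per cell cannot be told apart.

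In the knockout colon the median serpin gene lay close to its wild type signal, while 2 genes of the Serpina3 group were higher. Serpina3n, a secreted acute-phase inhibitor of leukocyte proteases, was 2.96-fold higher, and the signal of its relative Serpina3i was 2.33-fold higher, at levels within the range of genes not expected in colon. These were the 2 of 54 members called higher at a limma adjusted p under 0.05, a threshold that 0.392% of all genes passed upwards. No member was called lower, where 0.185% of all genes were, although at an unadjusted limma p under 0.05, 5 members lay higher and 4 lower, where 6.22% of all genes were higher and 8.1% lower. The median log2 difference was 0.02 over the 54 members and -0.01 over all genes, and 50 members differed by less than 0.5 in either direction. By the second rule, a difference of at least 1.5-fold with an unadjusted limma p under 0.05, 4 members were higher, Serpina3n, Serpina3i, Serpina10 and Serpini2, and 0 lower, where 1.56% of all genes were higher and 0.775% lower. The 4 knockout values lay wholly above the 4 wild type values for 4 members (3.79% of all genes) and wholly below for 2 (5.02% of all genes), so the share without overlap, 11.1% of members, was near the 8.81% of all genes.

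**Figure D1:**
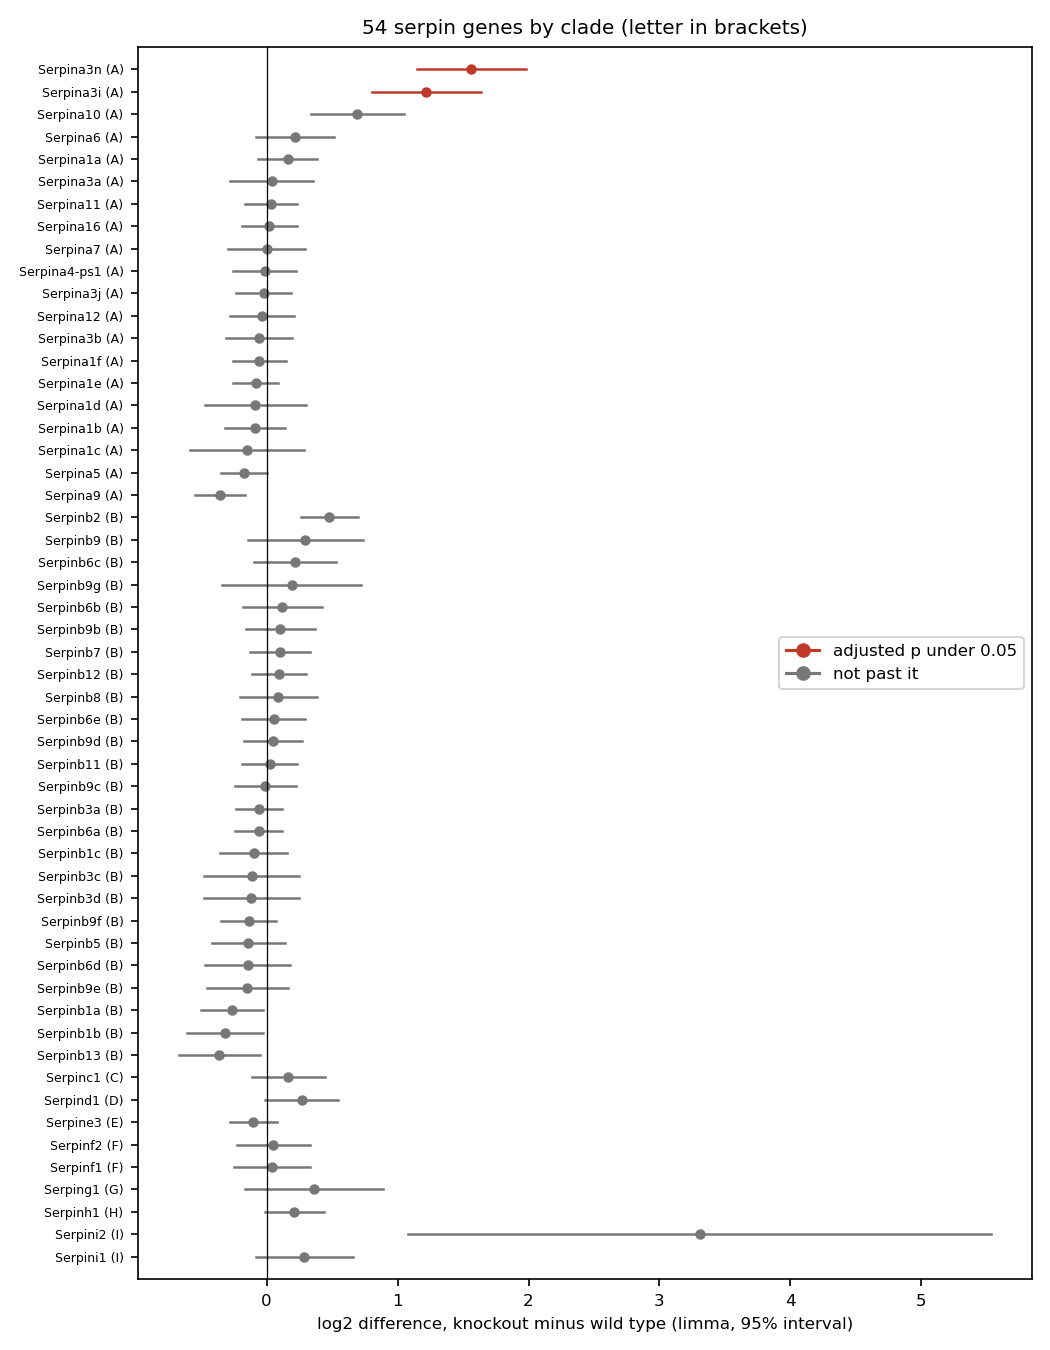
Log2 difference (knockout minus wild type, x axis) of the 54 serpin genes, ordered by clade and by size, with the limma 95% interval from 4 arrays per genotype. Serpina3n at 1.56 and Serpina3i at 1.22 are past the adjusted threshold, and Serpini2 has the widest interval (1.08 to 5.53).

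Many members gave a dim signal. As a rough background, the mean signals of 1105 olfactory receptor genes, which colon is not known for, had a median of 3.26 and a 95th percentile of 5.53. The mean over all arrays of 11 members exceeded that percentile, namely Serpina3n, Serpinb1a, Serping1, Serpinb5, Serpinh1, Serpinb6a, Serpinf1, Serpinb9, Serpinb6b, Serpinb9b and Serpinb1c, and 43 members lay at or under it. Probe sets differ in how brightly they bind, so this tells which members may be near background and gives no order of RNA levels. The median log2 difference was 0.10 in the 11 brighter members and 0.00 in the 43 others. Differences of the dim members may be compressed by the array.

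**Figure D2:**
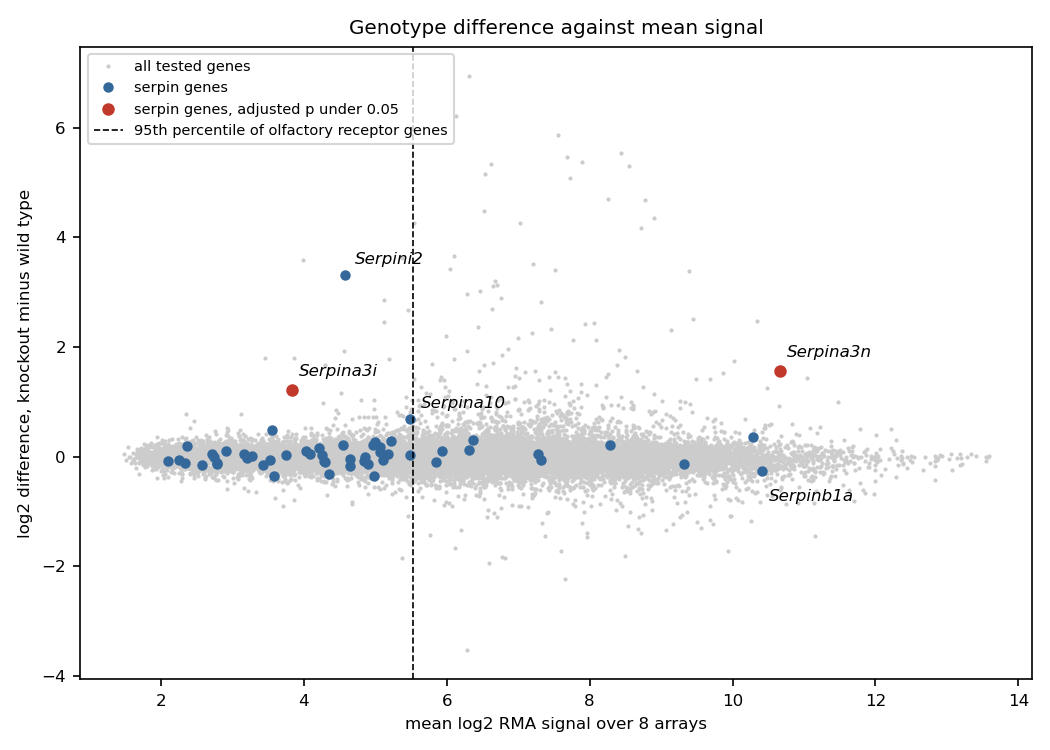
Log2 difference (knockout minus wild type) against the mean log2 signal over 8 arrays, with all 22180 genes in grey, serpin genes in blue and the 2 called serpin genes in red. The dashed line marks the 95th percentile of olfactory receptor genes; Serpina3n lies far to its right at a mean of 10.67, and Serpina3i to its left at 3.84.

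The Serpina3 group, related to human alpha-1-antichymotrypsin, has expanded in the mouse into neighbouring copies on chromosome 12. Of 14 Serpina3 entries in the reference gene table, pseudogenes included, 5 were measured here: Serpina3a, Serpina3b, Serpina3i, Serpina3j and Serpina3n, in this order along the chromosome. The 250 bases before the gene start of both called members are shown, because both were called higher and lie in the same cluster. Capitals mark matches to the letter patterns named after them (RefSeq, GRCm38.p6, plus strand).
Serpina3n, chr12:104406458-104406707: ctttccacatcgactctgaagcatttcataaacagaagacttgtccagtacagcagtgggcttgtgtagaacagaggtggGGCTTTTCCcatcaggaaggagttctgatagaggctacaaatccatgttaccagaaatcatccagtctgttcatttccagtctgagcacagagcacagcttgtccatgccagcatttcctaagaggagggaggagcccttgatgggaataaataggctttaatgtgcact
Serpina3i, chr12:104262872-104263121: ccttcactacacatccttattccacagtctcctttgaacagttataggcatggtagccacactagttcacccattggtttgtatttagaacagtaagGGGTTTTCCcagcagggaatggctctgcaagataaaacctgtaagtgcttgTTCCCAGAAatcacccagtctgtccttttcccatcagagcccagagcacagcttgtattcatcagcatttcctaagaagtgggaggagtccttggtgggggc
Both windows hold a match to GGNNNTTCC, the core of the NF-kB pattern, namely GGCTTTTCC starting 170 bases before the gene start of Serpina3n and GGGTTTTCC starting 153 bases before that of Serpina3i. The second capital run in Serpina3i, TTCCCAGAA, matches the STAT pattern TTCNNNGAA and starts 102 bases before the gene start. Neither window holds the C/EBP pattern TTGCNNAA, and the matches do not overlap. Both strands were searched. A window was found for 47 of the 54 members, and the NF-kB pattern occurred in 8 of them (17%), against 17.6% of 27025 genes. The STAT pattern occurred in 6 of 47 members (12.8%), against 8.13% of genes, and the C/EBP pattern in 11 of 47 (23.4%), against 10.8% of genes. Over 229 aligned bases the windows of Serpina3i and Serpina3n were 71.2% identical. The window of Serpina3b was as close to that of Serpina3n (75.3% over 239 bases) and has no NF-kB match. A match is a description of letters and not evidence of binding.

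Serpina3n read 11.63, 11.62, 11.13 and 11.41 in knockout replicates 1 to 4, against 10.23, 9.42, 9.68 and 10.20 in wild type replicates 1 to 4. Every knockout array lay above every wild type array. The means were 11.45 ± 0.23 in knockouts and 9.88 ± 0.40 in wild type (SD, n = 4 each), a 2.96-fold difference with a 95% interval of 2.21 to 3.95 (log2 difference 1.56 ± 0.19 SE, limma adjusted p = 0.00763), the 31st largest increase among the 87 genes called higher. The call held without any single array, with log2 differences of 1.41 to 1.68. Knockout replicate 3, the lowest knockout and the one without high pancreatic markers, was 1.25 above the wild type mean. On that array alone against wild type the difference did not pass (limma adjusted p = 0.664, where 14 of 22180 genes did). With the pancreatic marker mean as a covariate the difference was 1.28 (limma adjusted p = 0.485). With the distal colon marker mean it was 1.42 (limma adjusted p = 0.289). In each of these fits 2 genes of the whole array passed. The pancreatic mean was high in knockout replicates 1, 2 and 4 only, so that fit mostly compares knockout replicate 3 with wild type. The part of pancreatic tissue in the Serpina3n signal was not tested.

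Serpina3i, a little-studied neighbour, read 4.50, 4.72, 4.03 and 4.53 in knockout replicates 1 to 4, against 3.15, 3.35, 2.78 and 3.62 in wild type replicates 1 to 4. Again the genotypes did not overlap, and knockout replicate 3 was the lowest knockout. The difference was 2.33-fold with a 95% interval of 1.74 to 3.1 (log2 difference 1.22 ± 0.19 SE, limma adjusted p = 0.0230), but the means of 4.45 in knockouts and 3.23 in wild type both lay under the olfactory receptor 95th percentile, the wild type mean near the median, where the array may compress a fold. Its call was lost without knockout replicate 1, 2 or 4 or wild type replicate 2 (limma adjusted p = 0.0681, 0.0772, 0.0557 and 0.0827). With knockout replicate 3 as the sole knockout its difference was 0.81 (limma adjusted p = 0.771), and with the pancreatic and distal colon covariates the difference was 0.81 and 1.25 (limma adjusted p = 0.697 and 0.380). The other measured copies did not pass: Serpina3j, which lies between the called pair, had a log2 difference of -0.02, Serpina3a of 0.04 and Serpina3b of -0.05. Whether RNA of Serpina3n or of an unmeasured copy binds the Serpina3i probes was not tested.

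**Figure D3:**
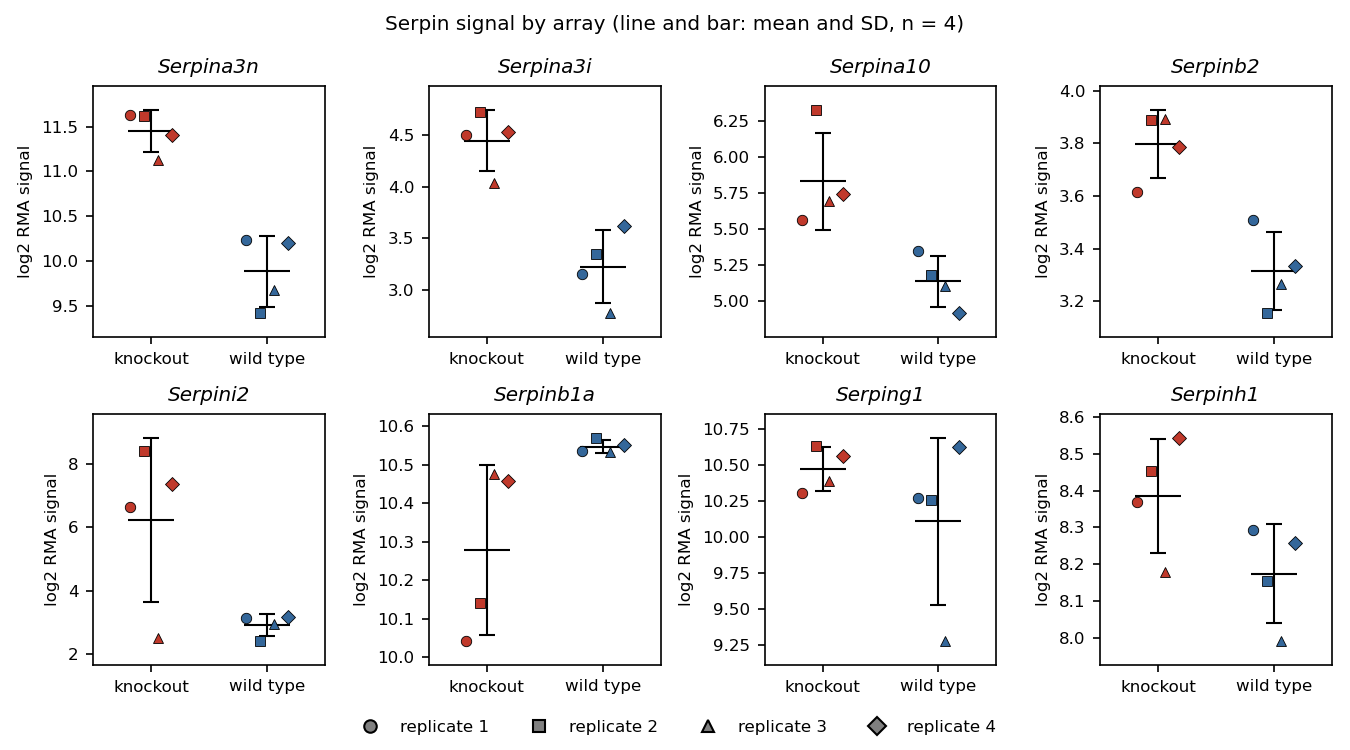
Log2 RMA signal of 8 serpin genes in each array, knockout left and wild type right, with the mean and SD of 4 arrays; each panel has its own y axis. Serpina3n, Serpina3i, Serpina10 and Serpinb2 are higher and Serpinb1a lower in every knockout than in every wild type array, while Serpini2 is high in knockout replicates 1, 2 and 4 only.

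Beside the Serpina3 pair, clade A held no other call. Serpina10, the protein Z-dependent inhibitor of clotting factor Xa, read 5.57, 6.32, 5.69 and 5.74 in knockout replicates 1 to 4, against 5.35, 5.18, 5.10 and 4.92 in wild type replicates 1 to 4. All knockouts lay above all wild types, with knockout replicate 2 highest. The difference was 1.62-fold (interval of the log2 difference 0.34 to 1.05) and missed the threshold with limma adjusted p = 0.0900. The antitrypsin copies Serpina1a to Serpina1f, whose human counterpart is the main plasma inhibitor of neutrophil elastase, showed no call: 1 difference was above 0 and 5 were below, between -0.15 and 0.16. Serpina1a was at 4.29 ± 0.13 in knockouts and 4.13 ± 0.16 in wild type (SD, n = 4 each) (log2 difference 0.16, 95% interval -0.07 to 0.39, limma adjusted p = 0.532). Serpina1b was at 4.23 ± 0.14 in knockouts and 4.32 ± 0.15 in wild type (SD, n = 4 each) (log2 difference -0.09, 95% interval -0.32 to 0.14, limma adjusted p = 0.759). With knockout replicate 3 as the sole knockout the differences were 0.30 for Serpina1a and -0.06 for Serpina1b. These copies are so alike that a probe set may read several of them, and all were dim. The 14 hepatocyte markers, for a cell type that makes many clade A serpins, averaged 5.91 to 6.10 in knockouts and 6.04 to 6.24 in wild type, with 0 called either way. By the second rule 2 of them were lower and 0 higher, where 0.775% of all genes were lower and 1.56% higher.

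The hormone carriers of clade A, which bind hormone and do not inhibit proteases, were not called. Serpina6, which carries corticosteroids, had a log2 difference of 0.22, and Serpina7, which carries thyroxine, of 0.000616. Serpina5, the protein C inhibitor, had -0.17 (limma adjusted p = 0.352). Serpina9, named centerin for its expression in germinal centre B cells in humans, was chosen after its values were seen, since its genotypes did not overlap. It read 4.85, 4.93, 4.86 and 4.60 in knockout replicates 1 to 4, against 5.12, 5.14, 5.18 and 5.22 in wild type replicates 1 to 4, lower in each knockout by a small margin (log2 difference -0.36 ± 0.09 SE, limma adjusted p = 0.0993).

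Clade B, the intracellular serpins, had 25 members and 0 calls, with a median log2 difference of -0.01 and a range of -0.36 to 0.48. Serpinb1a, the inhibitor of neutrophil elastase, cathepsin G and proteinase 3 that is also found in epithelial cells, read 10.04, 10.14, 10.48 and 10.46 in knockout replicates 1 to 4, against 10.54, 10.57, 10.53 and 10.55 in wild type replicates 1 to 4. The wild type arrays lay within a few hundredths of each other and every knockout was lower, knockout replicates 1 and 2 most. The difference was small and did not pass (log2 difference -0.27, 95% interval -0.50 to -0.03, limma adjusted p = 0.284). Knockout replicate 3 was -0.07 from the wild type mean. The difference was -0.10 with the pancreatic covariate and -0.04 with the distal colon covariate, and knockout replicates 1 and 2 were also the lowest arrays in the distal colon markers. All 7 distal colon markers had differences below 0, so that covariate also carries part of the genotype difference. The part of either marker list in the Serpinb1a signal was not tested. Its copies Serpinb1b and Serpinb1c had differences of -0.32 and -0.10 (limma adjusted p = 0.293 and 0.761), and Serpinb1b had -0.18 with the distal colon covariate.

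Serpinb2, an inhibitor of the plasminogen activator urokinase and a gene of activated macrophages, read 3.62, 3.89, 3.89 and 3.79 in knockout replicates 1 to 4, against 3.51, 3.16, 3.27 and 3.33 in wild type replicates 1 to 4. Each knockout exceeded each wild type, at signals near the olfactory receptor median. Its difference did not pass (log2 difference 0.48, 95% interval 0.26 to 0.70, limma adjusted p = 0.0675), but passed without wild type replicate 1 (0.54, limma adjusted p = 0.0471). The 11 measured macrophage markers averaged 8.54 to 8.91 in knockouts and 7.93 to 8.93 in wild type, with 0 called. Of the differences of these markers 10 were above 0 and 1 below, with a median of 0.33 against -0.01 over all genes. Their part in the Serpinb2 signal was not tested.

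The Serpinb9 group, whose founder Serpinb9 protects lymphocytes and other cells from granzyme B, had 7 measured copies and 0 calls. Serpinb9 itself was at 6.52 ± 0.12 in knockouts and 6.22 ± 0.47 in wild type (SD, n = 4 each), with wild type replicate 3 lowest at 5.54 (log2 difference 0.30, 95% interval -0.14 to 0.73, limma adjusted p = 0.556). Its difference was 0.07 without wild type replicate 3 and 0.53 with the distal colon covariate. The other 6 copies differed by -0.15 to 0.19. The 5 Serpinb6 copies, relatives of an inhibitor of cathepsin G, lay between -0.14 and 0.22, and the brightest, Serpinb6a, was at 7.30 ± 0.02 in knockouts and 7.36 ± 0.12 in wild type (SD, n = 4 each). Serpinb8, an inhibitor of furin, had 0.09.

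Most clade B members known from stratified epithelium were dim here. Serpinb3a, Serpinb3c and Serpinb3d, mouse relatives of the human squamous cell carcinoma antigens, had means between 2.22 and 2.85 and differences of -0.12 to -0.06. Serpinb7, Serpinb11 and Serpinb12 had differences of 0.10, 0.02 and 0.10. Serpinb13, expressed in squamous epithelium and chosen after its values were seen, had the largest negative difference of the family (log2 difference -0.36, 95% interval -0.67 to -0.05, limma adjusted p = 0.266), with 3.25 to 3.73 in knockouts and 3.56 to 4.10 in wild type. The groups overlapped through knockout replicate 3, at 3.73, and its difference was -0.03 with that array as the sole knockout, -0.06 with the pancreatic covariate and -0.21 with the distal colon covariate. The 13 squamous markers averaged 4.86 to 5.04 in knockouts and 4.88 to 5.04 in wild type, with 0 called. Serpinb5, the epithelial protein maspin, which does not act as a protease inhibitor, was bright and read 9.13, 8.98, 9.35 and 9.57 in knockout replicates 1 to 4, against 9.29, 9.31, 9.46 and 9.53 in wild type replicates 1 to 4 (log2 difference -0.14, 95% interval -0.42 to 0.14, limma adjusted p = 0.682).

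Grouped by place, the 19 members on chromosome 12 held both calls and had a median log2 difference of -0.02. The 15 on chromosome 13, with the Serpinb1, Serpinb6 and Serpinb9 copies, had -0.01, and the 11 on chromosome 1, with the other 10 clade B genes and Serpinc1, had 0.02.

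The plasma inhibitors of clotting and fibrinolysis in the smaller clades showed no call. Serpinc1, antithrombin, was at 5.15 ± 0.09 in knockouts and 4.98 ± 0.27 in wild type (SD, n = 4 each) (log2 difference 0.17, 95% interval -0.11 to 0.45, limma adjusted p = 0.612). Its difference was 0.07 without wild type replicate 1, 0.28 without wild type replicate 3, 0.26 with knockout replicate 3 as the sole knockout and 0.04 with the distal colon covariate. Serpind1, heparin cofactor II, was at 5.14 ± 0.09 in knockouts and 4.87 ± 0.26 in wild type (SD, n = 4 each) (log2 difference 0.27, 95% interval -0.01 to 0.54, limma adjusted p = 0.369). Both probe sets were dim, and the genotypes overlapped. Serpinf2, the inhibitor of plasmin, was at 5.20 ± 0.19 in knockouts and 5.15 ± 0.21 in wild type (SD, n = 4 each) (log2 difference 0.05, 95% interval -0.23 to 0.33, limma adjusted p = 0.905), and this small difference was 0.31 with knockout replicate 3 as the sole knockout and turned its sign in several alternatives. Serpine3, the measured clade E member, was at 4.24 ± 0.10 in knockouts and 4.34 ± 0.07 in wild type (SD, n = 4 each) (log2 difference -0.10, 95% interval -0.28 to 0.08, limma adjusted p = 0.638).

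Serping1, the inhibitor of the complement proteases C1r and C1s and of plasma kallikrein, was among the bright members. It read 10.31, 10.63, 10.39 and 10.56 in knockout replicates 1 to 4, against 10.27, 10.26, 9.28 and 10.63 in wild type replicates 1 to 4. Wild type replicate 3 was low and the other 7 arrays overlapped. The difference over all arrays was 0.36 (95% interval -0.16 to 0.89, limma adjusted p = 0.549), without wild type replicate 3 it was 0.09, and with the distal colon covariate 0.64.

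Serpinh1, the chaperone HSP47 that helps procollagen fold in the endoplasmic reticulum, read 8.37, 8.45, 8.18 and 8.54 in knockout replicates 1 to 4, against 8.29, 8.15, 7.99 and 8.26 in wild type replicates 1 to 4. The groups overlapped through knockout replicate 3 (log2 difference 0.21, 95% interval -0.01 to 0.44, limma adjusted p = 0.380). With knockout replicate 3 as the sole knockout the difference was 0.00484. It was 0.00901 with the pancreatic covariate, a fit that rests mostly on the same array. Of 17 measured collagen synthesis genes, 16 had differences above 0, with a median of 0.32 against -0.01 over all genes. Their mean was 8.80, 8.79, 8.46 and 8.73 in knockout replicates 1 to 4, against 8.52, 8.23, 8.26 and 8.28 in wild type replicates 1 to 4, so knockout replicate 3 lay within the wild type range. By the adjusted threshold, which 0.392% of all genes passed upwards, 1 was called higher, Col1a2, a chain of type I collagen, at 10.20, 10.19, 9.84 and 9.95 in knockout replicates 1 to 4 and 9.64, 9.31, 9.26 and 9.41 in wild type (log2 difference 0.64 ± 0.11 SE, limma adjusted p = 0.0396). Serpinf1, pigment epithelium-derived factor, which has no known protease inhibition and is made by stromal cells, read 7.32, 7.38, 7.11 and 7.37 in knockout replicates 1 to 4, against 7.13, 7.08, 7.15 and 7.65 in wild type replicates 1 to 4. Wild type replicate 4 was above all other arrays, and the difference was 0.04 (95% interval -0.25 to 0.33, limma adjusted p = 0.925). The 11 fibroblast markers averaged 9.06 to 9.46 in knockouts and 8.61 to 9.17 in wild type. Their 1 gene called higher was again Col1a2, which is on both lists. Of their differences 10 were above 0. For 4 of them every knockout lay above every wild type array, as for 3.79% of all genes.

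In clade I, Serpini2, also called pancpin and known from pancreatic acinar cells, had the largest difference of the family and the largest spread. It read 6.65, 8.40, 2.49 and 7.35 in knockout replicates 1 to 4, against 3.13, 2.42, 2.95 and 3.16 in wild type replicates 1 to 4. Knockout replicates 1, 2 and 4 were far above all other arrays, and knockout replicate 3 lay within the wild type range. The log2 difference was 3.31 (95% interval 1.08 to 5.53), and it did not pass (limma adjusted p = 0.159). Without knockout replicate 3 it was 4.55 (limma adjusted p = 0.000200), and knockout replicate 3 alone was -0.42 from the wild type mean. These are the arrays with high pancreatic acinar markers, whose mean was 9.73, 10.57, 5.78 and 10.30 in knockout replicates 1 to 4. With that mean as a covariate the Serpini2 difference was -0.37 (limma adjusted p = 0.982), a fit that rests mostly on knockout replicate 3. The part of pancreatic tissue in the Serpini2 signal was not tested. Serpini1, neuroserpin, the nervous system's inhibitor of tissue plasminogen activator and a neighbour of Serpini2 on chromosome 3, was at 5.36 ± 0.25 in knockouts and 5.08 ± 0.31 in wild type (SD, n = 4 each) (log2 difference 0.29, 95% interval -0.08 to 0.66, limma adjusted p = 0.485). Its difference was 0.16 without wild type replicate 3, -0.06 with knockout replicate 3 as the sole knockout and -0.06 with the pancreatic covariate.

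**Figure D4:**
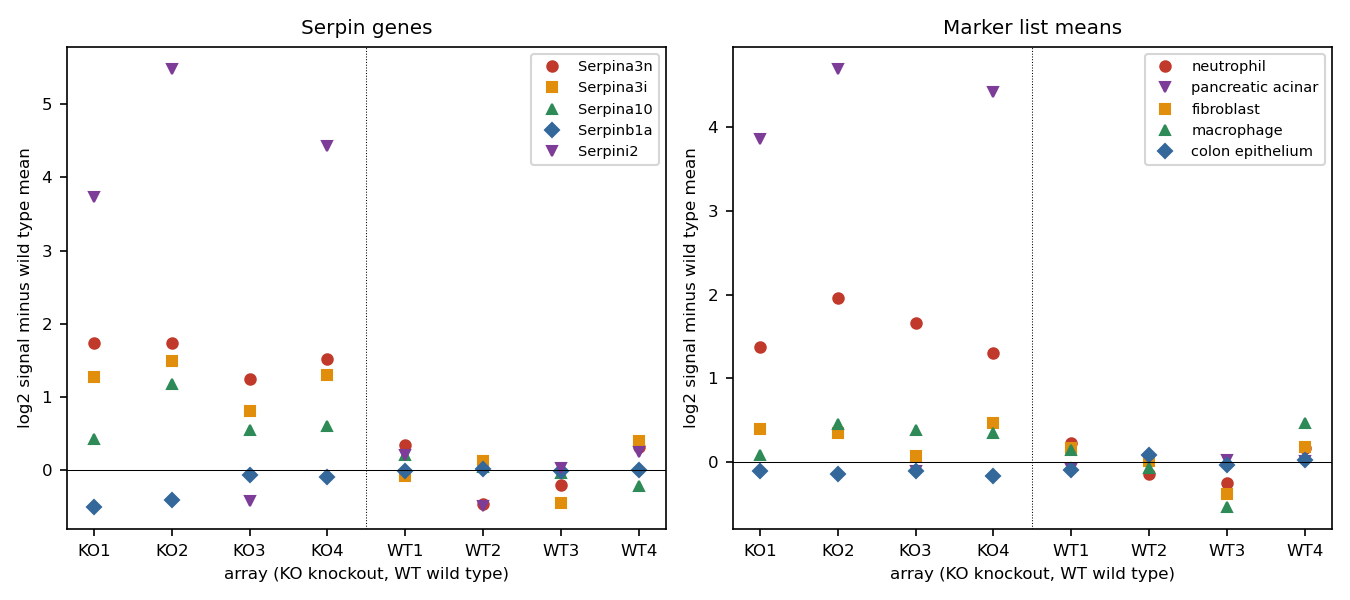
Log2 signal of each array minus the wild type mean, for 5 serpin genes (left) and the means of 5 marker lists (right), knockout arrays (KO1 to KO4) before wild type arrays (WT1 to WT4). Serpini2 and the pancreatic acinar list are high in KO1, KO2 and KO4 and near 0 or below in KO3, while Serpina3n and the neutrophil list are above 0 in all knockouts.

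Set beside the array values, the Serpina3n excess over the wild type mean was 1.74, 1.74, 1.25 and 1.53 in knockout replicates 1 to 4, and the neutrophil marker mean was 7.24, 7.83, 7.53 and 7.17 in the same arrays, against 6.09, 5.72, 5.61 and 6.04 in wild type replicates 1 to 4. Both were above all wild type values in every knockout, but their order among the knockouts differed: knockout replicate 3 was lowest for Serpina3n and second highest for the neutrophil markers. The part of neutrophils in the Serpina3n signal was not tested.

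Genes of the proteases that serpins inhibit and of their cascades were set beside the family; as 0.392% of all genes were called higher and 0.185% lower, a count of 0 in lists of this size is near the background. Of the 4 neutrophil serine protease genes, 0 were called, and the transcripts of Elane (neutrophil elastase), Ctsg (cathepsin G) and Prtn3 (proteinase 3) had log2 differences of -0.01, -0.13 and 0.13. Ctsg read 4.46, 4.48, 4.45 and 4.37 in knockout replicates 1 to 4, against 4.69, 4.55, 4.53 and 4.53 in wild type replicates 1 to 4, slightly lower in every knockout (log2 difference -0.13 ± 0.07 SE, limma adjusted p = 0.454). Neutrophil precursors in the marrow make these transcripts, and the mature cell carries the proteins. Whether this bears on the differences here was not tested. Of 9 granzymes, 0 passed the adjusted threshold, and 2 were higher by the second rule, which 1.56% of all genes passed upwards. Gzma, with the smallest p of the list, read 4.52, 5.46, 5.63 and 4.81 in knockout replicates 1 to 4, against 4.14, 3.64, 3.84 and 4.14 in wild type replicates 1 to 4, with no overlap and a difference of 1.17 (limma adjusted p = 0.0613). The other was Gzmb, granzyme B, the target of Serpinb9, named after its values were seen, which read 5.86, 6.30, 6.26 and 5.47 in knockout replicates 1 to 4, against 5.44, 4.78, 4.78 and 4.53 in wild type replicates 1 to 4, also with no overlap (log2 difference 1.09, limma adjusted p = 0.0638). Of 13 cathepsins 0 passed, and Ctse, an epithelial aspartic protease, had the smallest p of the list and a difference of -1.09 (limma adjusted p = 0.0676). Of 11 mast cell proteases and 16 membrane and secreted epithelial serine proteases, 0 passed, with medians of 0.08 and -0.06.

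Among 9 measured genes of plasminogen activation 0 passed the adjusted threshold and 2 were higher by the second rule, Plaur and Plat, while 7 differences were above 0 and the median was 0.24, against -0.01 over all genes. Plaur, the urokinase receptor, read 7.42, 8.18, 8.10 and 7.30 in knockout replicates 1 to 4, against 7.04, 6.58, 6.42 and 7.16 in wild type replicates 1 to 4 (log2 difference 0.95, limma adjusted p = 0.0995). The groups did not overlap, and knockout replicates 2 and 3 were highest. Plat, tissue plasminogen activator, named after its values were seen, read 7.85, 7.88, 7.70 and 8.28 in knockout replicates 1 to 4, against 7.64, 7.05, 6.94 and 7.45 in wild type replicates 1 to 4, with no overlap either (log2 difference 0.66 ± 0.17 SE, limma adjusted p = 0.115). Of 19 coagulation genes 0 passed (median 0.07). Of 8 C1 and kinin genes 1 was higher, Bdkrb1, the inducible kinin receptor, which read 6.44, 6.39, 6.38 and 6.63 in knockout replicates 1 to 4, against 5.79, 5.86, 5.91 and 5.87 in wild type replicates 1 to 4 (log2 difference 0.60 ± 0.08 SE, limma adjusted p = 0.0139). Its arrays were tightly grouped within each genotype. Of 24 serine protease inhibitors outside the serpin family, 0 were called higher and 1 lower, Wfdc2, an epithelial protein with antiprotease domains, which read 6.46, 6.43, 6.79 and 6.69 in knockout replicates 1 to 4, against 7.18, 7.77, 7.38 and 7.68 in wild type replicates 1 to 4 (log2 difference -0.91 ± 0.14 SE, limma adjusted p = 0.0227). By the second rule 4 of the 24 were higher and 1 lower, where 1.56% of all genes were higher and 0.775% lower. Their differences ranged from -0.91 to 0.93, with a median of -0.02.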

How the data were processed

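Per the labels, total RNA from middle colon of 8 mice was amplified and labelled with biotin, and each sample was hybridised to 1 whole-transcript array. The deposited values are log2 signals per probe set, made by the authors with RMA in Affymetrix Expression Console 1.4, per the submitters' processing notes. RMA equalises the arrays (medians 5.73 to 5.83) and compresses differences near background and saturation. The number of arrays limits the precision. Of 41345 probe sets, 23521 had 1 gene symbol in the platform annotation, 1814 several and 16010 none, and 23328 were updated by Entrez identifier (GRCm38.p6). The brightest probe set per gene left 22180 genes, with no filter on dim genes.

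The knockout effect was fitted without covariates by limma 3.58.1 (R 4.3.3; lmFit and eBayes), and p-values were adjusted by Benjamini-Hochberg across the 22180 genes with a threshold of 0.05. The fit was tested on simulated data with independent noise in each gene. The simulation held no differences between mice shared by many genes, such as those of knockout replicate 3. Genes given with values were those past a threshold (adjusted p under 0.05, or unadjusted p under 0.05 and at least 1.5-fold), the brightest of each clade and a fixed set of well-known members, 17 in all; Serpina9, Serpinb13 and Serpinb1b and further members were named after their values were seen. Of each other gene list, called genes or the smallest p are given, and Elane, Prtn3, Epcam, Gzmb and Plat were added. Members and lists were chosen with earlier results of these data known. Alternatives were a variance trend with robust variance, array weights, quantile normalization, equal medians, dropping the dimmest 33.3% of genes, averaging or keeping a gene's probe sets, a replicate block, marker covariates and leaving out arrays.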

Additional observations from a re-analysis of the deposited data

Results flagged for a closer look

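In groups of 4 arrays, 2 of 40 groups examined held a value far from the other 3, and chance gives about 1 in 20. Serpinf1 stood at 7.65 in wild type replicate 4, where the other wild type arrays read 7.13, 7.08 and 7.15. Serpinb13 stood at 3.73 in knockout replicate 3, where the other knockouts read 3.25, 3.33 and 3.31.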

How the results depend on the processing

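The number of serpin genes called higher was 2, and 2 in 7 alternatives that kept all arrays and added no marker covariate; it was 1 without the dimmest 33.3% of genes, where Serpina3i was not tested, and 1 to 3 when single arrays were left out. It was 0 with knockout replicate 3 as the sole knockout, assumed to vary like the wild type, 0 with the pancreatic covariate and 0 with the distal colon covariate. The number called lower was 0 in every alternative run. Over all genes 128 were called, 199 with array weights, 203 without the dimmest 33.3%, 64 with the replicate number as a block, 25 to 252 without single arrays (fewest without wild type replicate 2, most without knockout replicate 3), 14 with knockout replicate 3 alone, and 2 and 2 with the pancreatic and distal colon covariates; the cause was not tested. Same-numbered mice were treated as unpaired in the main fit. Their deviations from the genotype means correlated between -0.16 and 0.05, which cannot show how the mice were handled. The block changed no serpin call. With it the limma adjusted p was 0.0204 for Serpina3n (0.00763 in the main fit) and 0.00974 for Serpina3i (0.0230 in the main fit). Of 367 values of 20 named genes under alternatives, 12 turned their sign, none of them a called gene: Serpini2 (-0.422), Serpini1 (-0.0581), Serpinf1 (-0.145) and Serpine3 (0.0443) with knockout replicate 3 alone, and -0.366, -0.0551, -0.143 and 0.0301 for the same genes with the pancreatic covariate; Serpinf1 (-0.0167) and Serpinf2 (-0.0092) without wild type replicate 2; and Serpinf2 without knockout replicate 3 (-0.0346) and with the distal colon covariate (-0.0127). The fits with knockout replicate 3 alone and with the pancreatic covariate make nearly the same comparison, so their sign turns are not separate checks. Over fits without 1 array, Serpinf1 ranged from -0.0167 to 0.172 and Serpinf2 from -0.0346 to 0.144. Signal over background limits the 43 dim members.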

Other observations

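The probe set annotated to both Serpinb10 and Serpinb2 read 4.19, 4.23, 4.05 and 4.07 in knockout replicates 1 to 4 and 4.24, 3.91, 3.93 and 4.16 in wild type replicates 1 to 4. The genotypes overlapped, whereas the probe set of Serpinb2 alone had no overlap. A probe set shared by 1110046J04Rik and Serpinb6a read 4.54, 4.59, 4.37 and 4.80 in knockout replicates 1 to 4 and 4.72, 4.76, 4.90 and 4.73 in wild type replicates 1 to 4, overlapping through knockout replicate 4. The dimmer probe set of Serpinb9b averaged 3.83 in knockouts and 3.56 in wild type, also with overlap.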
